A study of Homo sapiens with 36 samples.

Results

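The genes described here are 9 genes of retinoid metabolism and retinoic acid signalling in 2 human kidney cancer lines, namely DHRS3, RDH10, ALDH1A1, ALDH1A3, CYP26B1, CRABP2, RARA, RARB and RARG. They make up 9 of the 45478 genes in the count table. The members were chosen by a list of symbols, matched to the Ensembl identifiers of the table, together with 1 measured value, the higher level of DHRS3 under avelumab in 786-O resistant cells. All 9 were found and had at least 1 count in each of the 36 libraries. The difference that led to the choice is given as a description, with no test.

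RNA was sequenced in A498 and 786-O, long-established human lines from clear cell kidney carcinoma, described in the labels as advanced. Both were studied unselected (parental) and after growth in rising sunitinib, an inhibitor of receptor tyrosine kinases, until they grew stably at 2 µM (A498) or 4 µM (786-O). The 4 cell states were A498 resistant, A498 parental, 786-O resistant and 786-O parental. Cells of each state received 1 of 3 antibodies against PD-L1 (atezolizumab, avelumab, durvalumab), which gave 12 groups of 3 libraries. The treatment lasted 24 h, at 10 mg/mL in the labels' own unit. All 36 libraries therefore came from antibody-treated cells, so the antibodies are compared with each other; untreated libraries were not analysed here. The labels do not say whether a resistant line was 1 clone, nor whether sunitinib was present during the antibody treatment. Separate cultures are not stated either, and the p-values below may then reflect technical spread among libraries alone.

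Retinol is oxidised to retinal and then to retinoic acid, which binds nuclear receptors and switches on target genes. RDH10 carries out the oxidation of retinol to retinal, DHRS3 reduces retinal back to retinol, ALDH1A1 and ALDH1A3 oxidise retinal to retinoic acid, and CYP26B1 degrades retinoic acid. CRABP2 carries retinoic acid to the receptors RARA, RARB and RARG, and DHRS3, RARB, CRABP2 and the CYP26 enzymes are themselves known to be raised by retinoic acid in many cell types. In the kidney, retinoic acid signalling is known for its part in branching of the ureteric bud during development.

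The libraries held 19994882 to 58122896 counts each, and a level is given as CPM, the count scaled to the library total. In the libraries labelled A498 resistant, HIF1A went against the line label. HIF1A, whose normal transcript 786-O cells are known to lack, lay between 285 and 305 CPM in A498 parental. It lay between 8.40 and 9.73 CPM in libraries labelled A498 resistant, 7.92 and 9.24 CPM in 786-O resistant and 8.33 and 10.3 CPM in 786-O parental. No library was moved, these 9 libraries are called by their label throughout, and the comparisons of 786-O resistant with 786-O parental and of the parental lines do not use them. Each cell state also carries its own batch label, so batch cannot be told apart from state, and the antibody comparisons each lie within 1 batch. The kidney epithelial markers PAX8, PAX2, KRT8, KRT18 and CDH2 were each at 1 CPM or more on average in each state. Of the clear cell markers CA9, NDUFA4L2 and VEGFA, only VEGFA reached 1 CPM on average in both 786-O states and in libraries labelled A498 resistant. In A498 parental CA9 reached it too, at a mean of 1.27 CPM, and CA9 shares 38.5% of its exonic length with a gene on the other strand and is uncertain. Summed leukocyte markers reached at most 4.31 CPM and endothelial markers at most 0.908 CPM, with CD3E at 0 counts in both parental states. The summed fibroblast markers ran from 50.5 to 61.8 CPM in A498 parental, nearly all from COL1A1 (mean 55.7 CPM), against 25.3 to 28.6 CPM in libraries labelled A498 resistant, 10.3 to 12.1 CPM in 786-O resistant and 5.81 to 8.03 CPM in 786-O parental. COL1A1 was the 1 of these 5 markers at 1 CPM or more on average in A498 parental. In libraries labelled A498 resistant 3 of the 5 reached that level, and in each 786-O state 2 did. The sum moved with the higher retinoid genes of A498 parental, but the number of markers at that level did not. Their part in the differences between states was not tested.

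Retinoic acid receptors bind pairs of a short half-site, so the 250 bases before the RefSeq gene starts (GRCh38.p14) were searched on both strands for the half-site AGGTCA and its variants written AGTTCA or written GGGTCA or written GGTTCA. A window was found for 8 of the 9 genes, with 15 windows in all. Of these, 7 held a half-site, against 33.8% of the 35116 windows of that length over all genes. Several windows can belong to the same gene, and the 7 lay before starts of DHRS3, CRABP2, RARA and RARB only. A direct repeat of half-sites 1, 2 or 5 bases apart was found in 1 window, against 0.2% of all windows. It lies before a start of RARB, the receptor gene whose retinoic acid response element is a textbook example. The windows below show that element, a DHRS3 window with 1 half-site and the ALDH1A1 window, which holds none of these letters. DHRS3 has further windows, of which that at 12618211 to 12618460 held 0 half-sites and that at 12596614 to 12596863 held 1. They are printed 5′ to 3′ on the gene's strand in lower case, with half-sites in capitals.
RARB, chr3:25428013-25428262, plus strand: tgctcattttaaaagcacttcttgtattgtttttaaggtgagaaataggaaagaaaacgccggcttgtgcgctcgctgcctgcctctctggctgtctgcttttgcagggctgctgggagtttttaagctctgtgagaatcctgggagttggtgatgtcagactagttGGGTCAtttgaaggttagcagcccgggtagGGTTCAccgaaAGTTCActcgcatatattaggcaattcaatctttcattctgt
DHRS3, chr1:12616790-12617039, minus strand: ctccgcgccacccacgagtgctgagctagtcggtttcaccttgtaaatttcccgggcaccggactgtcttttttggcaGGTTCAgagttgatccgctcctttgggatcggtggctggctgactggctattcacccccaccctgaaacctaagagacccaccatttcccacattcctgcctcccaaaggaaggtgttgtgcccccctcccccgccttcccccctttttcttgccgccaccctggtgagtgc
ALDH1A1, chr9:72953054-72953303, minus strand: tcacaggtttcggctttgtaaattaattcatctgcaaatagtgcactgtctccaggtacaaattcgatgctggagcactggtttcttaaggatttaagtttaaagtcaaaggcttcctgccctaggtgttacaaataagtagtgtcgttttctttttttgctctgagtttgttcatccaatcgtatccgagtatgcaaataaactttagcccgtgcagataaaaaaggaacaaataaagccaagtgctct
In the RARB window, the 3 half-sites begin 83, 53 and 42 bases before the start, and the pair nearest the start has 5 bases between its half-sites. A match is a description of these letters, and no binding was measured.

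The 2 short-chain dehydrogenases that interconvert retinol and retinal both stood highest in A498 parental. DHRS3 (ENSG00000162496.9, chromosome 1, 12567910 to 12617731, minus strand, on GRCh38 with GENCODE 29) had a lowest, median and highest level of 118, 127 and 137 CPM in A498 parental. The same 3 values were 32.3, 35.8 and 38.0 CPM in libraries labelled A498 resistant, 3.96, 5.66 and 17.9 CPM in 786-O resistant and 1.71, 2.44 and 3.36 CPM in 786-O parental. The 4 states therefore did not overlap for DHRS3, and in 786-O resistant the highest library was far above the median. RDH10 (ENSG00000121039.10, chromosome 8, 73294612 to 73325281) gave 245, 260 and 277 CPM in A498 parental and 36.7, 38.3 and 40.9 CPM in libraries labelled A498 resistant. It gave 29.6, 31.8 and 38.5 CPM in 786-O resistant and 15.6, 17.3 and 18.3 CPM in 786-O parental. A498 parental stood apart at the top for RDH10, 786-O parental at the bottom, and the sunitinib-selected states overlapped.

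Of the aldehyde dehydrogenases that make retinoic acid, ALDH1A1 was the more abundant and the more variable across states. ALDH1A1 (ENSG00000165092.13, chromosome 9, 72900662 to 73080442) had a lowest, median and highest level of 1122, 1255 and 1766 CPM in A498 parental and of 311, 329 and 354 CPM in libraries labelled A498 resistant. The values for 786-O resistant were 111, 143 and 214 CPM, and for 786-O parental 93.1, 117 and 127 CPM, so both 786-O states overlapped. ALDH1A3 (ENSG00000184254.17, chromosome 15, 100877714 to 100916626) was at 48.1 to 55.3 CPM in A498 parental, 47.9 to 53.8 CPM in libraries labelled A498 resistant and 44.9 to 52.4 CPM in 786-O resistant. These 3 states overlapped, and 786-O parental lay below them at 19.8 to 21.6 CPM. ALDH1A3 shares 27.5% of its exonic length with AC015712.2 on the other strand. That gene had a mean of 34.3 CPM in A498 parental, 33.1 CPM in libraries labelled A498 resistant, and, for the line 786-O, 33.7 CPM in resistant against 14.8 CPM in parental cells, and whether counting used strand is not given in the sources used here. The ALDH1A3 values are therefore uncertain.

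CYP26B1, the enzyme that clears retinoic acid, and CRABP2, its carrier, were mainly A498 parental transcripts. CYP26B1 (ENSG00000003137.8, chromosome 2, 72129238 to 72148038) had a lowest, median and highest level of 33.0, 39.9 and 41.6 CPM there. It fell to 0.2, 0.338 and 0.579 CPM in libraries labelled A498 resistant, where the 9 libraries held 77 counts in all. The 786-O resistant libraries held 43 counts and the 786-O parental libraries 31, at means of 0.115 and 0.0898 CPM, so small differences among the 3 lower states were at the limit of depth. CRABP2 (ENSG00000143320.9, chromosome 1, 156699606 to 156705816) was at 20.2, 23.9 and 28.9 CPM in A498 parental. It was at 1.80 to 2.43 CPM in libraries labelled A498 resistant and 1.53 to 2.62 CPM in 786-O resistant, which overlapped. In 786-O parental it was at 2.76 to 3.51 CPM, above both sunitinib-selected states.

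The 3 receptors behaved differently from one another. RARB (ENSG00000077092.19, chromosome 3, 25174332 to 25597932) had a lowest, median and highest level of 15.8, 17.0 and 19.7 CPM in A498 parental. It was at 0.330 to 0.861 CPM in libraries labelled A498 resistant, 0.123 to 0.416 CPM in 786-O resistant and 0.0511 to 0.370 CPM in 786-O parental, and the last of these held 46 counts over 9 libraries. RARA (ENSG00000131759.18, chromosome 17, 40309192 to 40357643) was present in each state, at 64.4 to 71.9 CPM in A498 parental, 46.7 to 59.2 CPM in libraries labelled A498 resistant and 55.3 to 67.0 CPM in 786-O resistant. It was lowest in 786-O parental, at 29.7 to 34.7 CPM. RARA shares 11.8% of its exonic length with RARA-AS1 and 6.2% with AC080112.3, both on the other strand, so its values are uncertain. RARA-AS1 had a mean of 4.21 CPM in A498 parental and at most 0.158 CPM in the other states, and AC080112.3 ranged over the states from 4.19 to 8.79 CPM. RARG (ENSG00000172819.17, chromosome 12, 53210567 to 53232980) was at 50.6 to 57.7 CPM in A498 parental. Its other ranges overlapped, at 29.3 to 31.9 CPM in libraries labelled A498 resistant, 24.9 to 30.9 CPM in 786-O resistant and 24.9 to 29.9 CPM in 786-O parental.

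**Figure D1:**
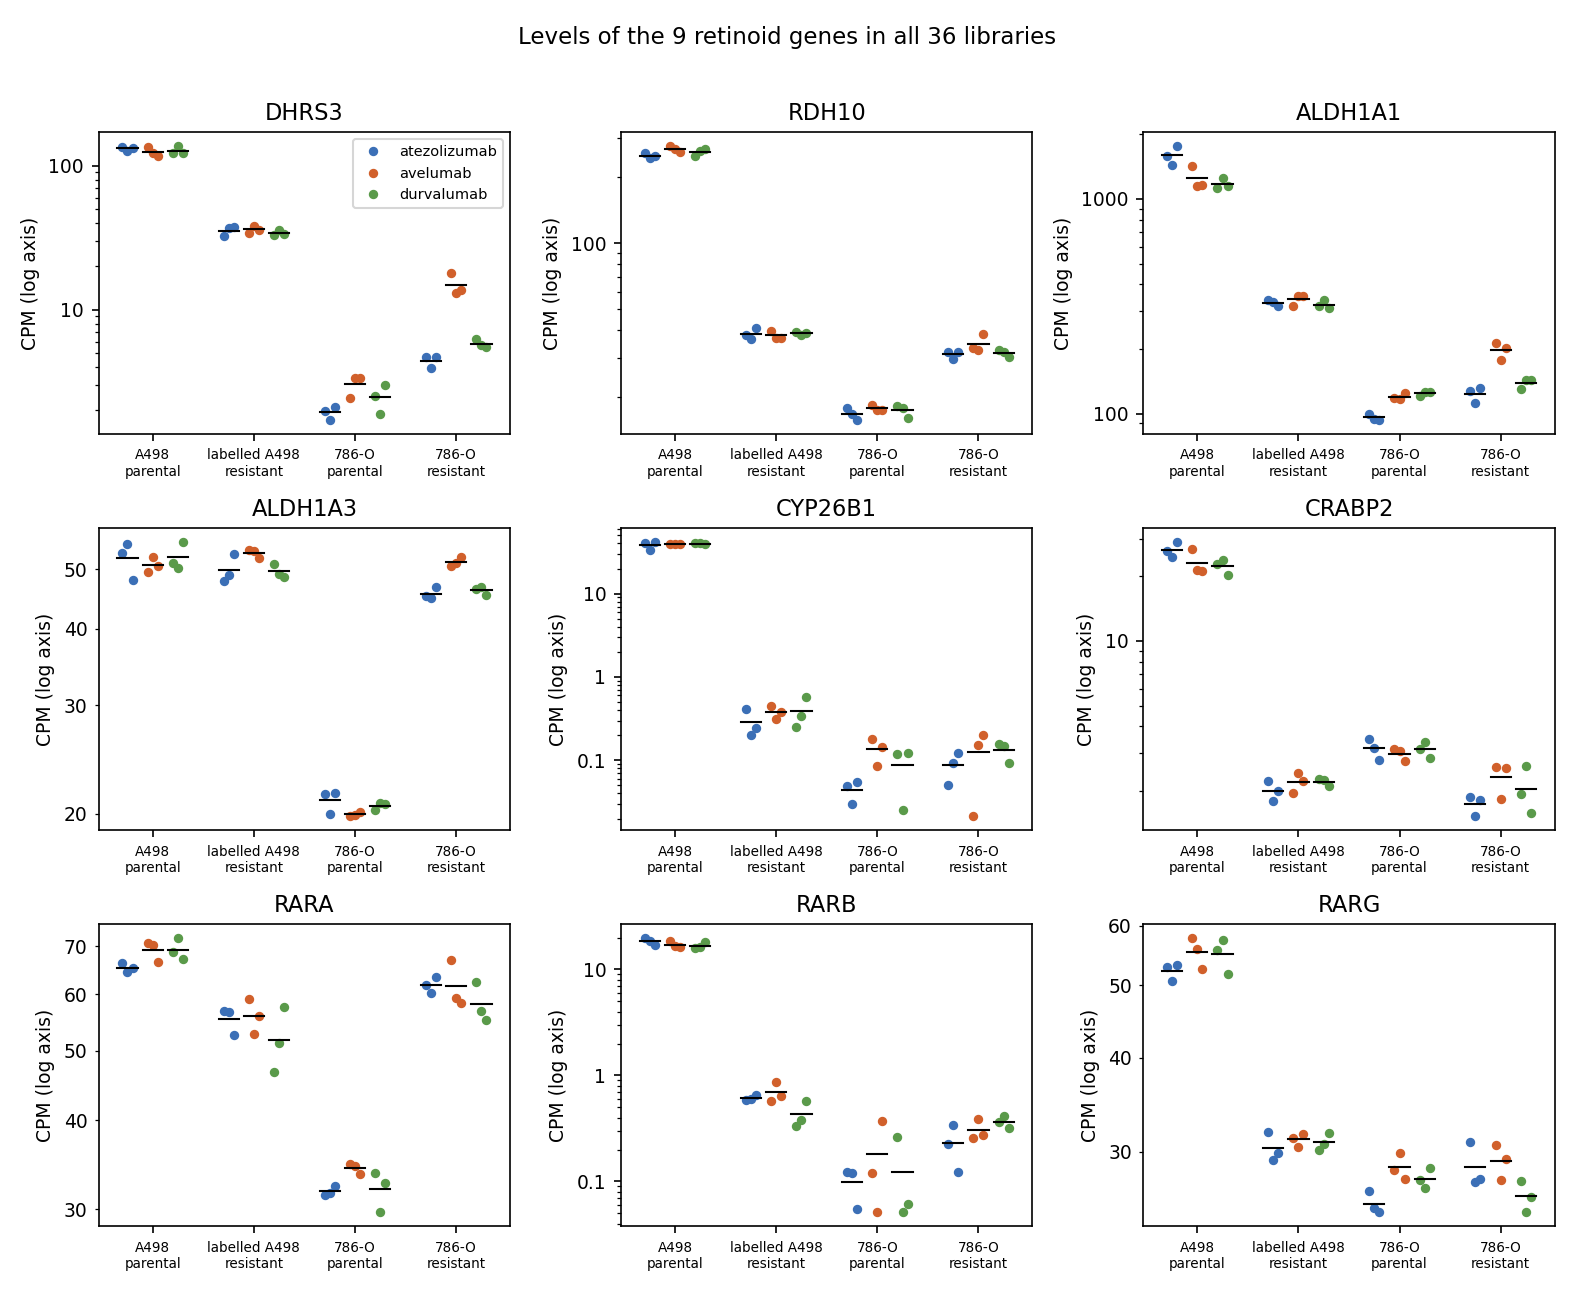
Level of each of the 9 genes in CPM (vertical log axis, scaled for each gene) in the 36 libraries, by cell state (horizontal) and antibody (colour); points are libraries and black lines are means of 3. A498 parental libraries are the highest for DHRS3, RDH10, ALDH1A1, CYP26B1, CRABP2, RARB and RARG, while the DHRS3 points under avelumab in 786-O resistant lie at 13.0 to 17.9 CPM, above the other 786-O points.

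Levels of different genes were compared as CPM per kilobase of exonic length (RPKM), as mean ± SD over 9 libraries. In A498 parental, ALDH1A1 led at 470 ± 80.3 RPKM, followed by RDH10 at 48.9 ± 1.96, DHRS3 at 42.2 ± 2.38 and CRABP2 at 21.8 ± 2.63 RPKM. RARA (14.4 ± 0.551 RPKM), RARG (10.6 ± 0.501), ALDH1A3 (8.96 ± 0.425), CYP26B1 (7.81 ± 0.491) and RARB (4.71 ± 0.354) followed. The ranges of neighbours in that order did not overlap. In 786-O parental, ALDH1A1 again led, at 39.8 ± 4.80 RPKM, but RARA came next at 6.91 ± 0.341 and DHRS3 stood at 0.817 ± 0.204 RPKM, below the other genes except RARB and CYP26B1. There the ranges of ALDH1A3 (3.56 ± 0.116 RPKM), RDH10 (3.24 ± 0.176) and CRABP2 (2.81 ± 0.233) met, as did those of RARB (0.0364 ± 0.0299) and CYP26B1 (0.0179 ± 0.0108 RPKM). In 786-O resistant, DHRS3 stood at 2.76 ± 1.68 RPKM, an SD that holds the difference between antibodies described next. The oxidising RDH10 was therefore above the reducing DHRS3 per length in A498 parental and in both 786-O states, and below it in the libraries labelled A498 resistant (7.23 ± 0.268 against 11.6 ± 0.660 RPKM). The plot of RPKM by state shows these orders.

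**Figure D2:**
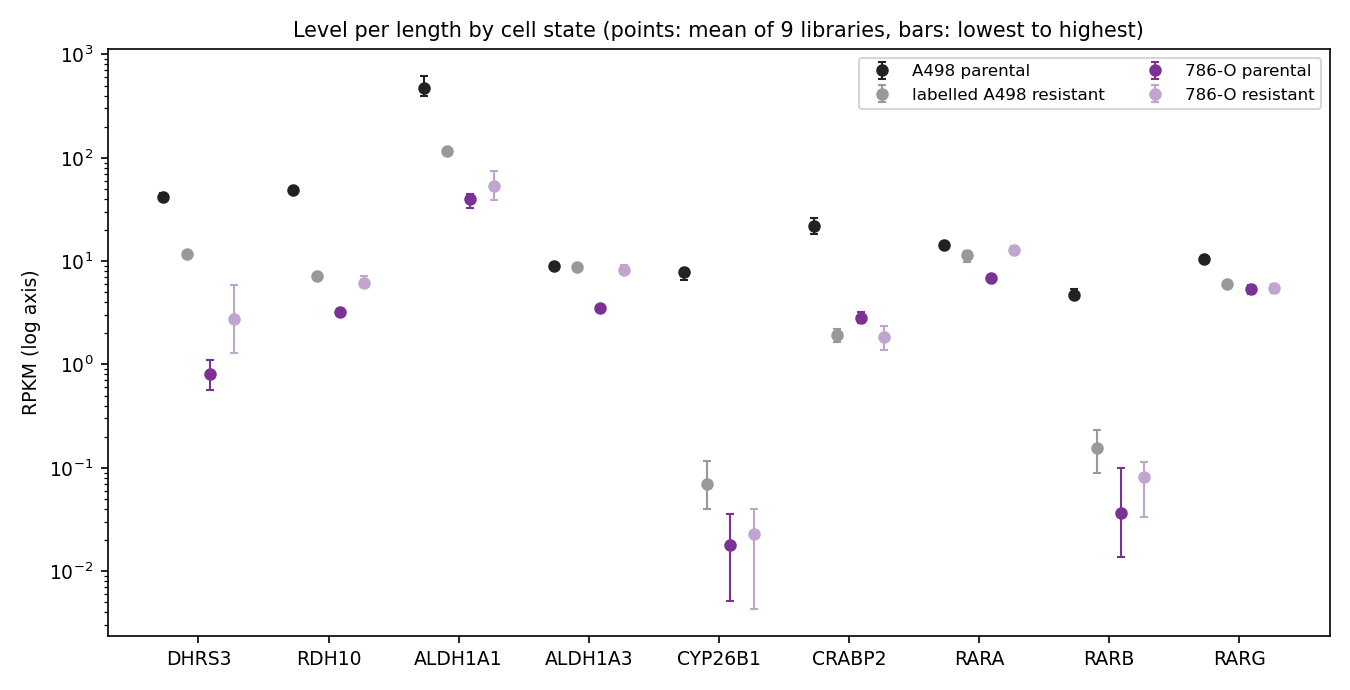
Level per length of the 9 genes (horizontal) in RPKM on a log axis, by cell state (colour); points are means of 9 libraries and bars run from the lowest to the highest library. ALDH1A1 is the highest gene in each state, from 39.8 RPKM in 786-O parental to 470 in A498 parental, and CYP26B1 and RARB are near the lower end outside A498 parental.

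DHRS3 was higher under avelumab than under the other antibodies in 786-O resistant, which is the value the members were chosen by. Its levels in 786-O resistant were 4.66, 3.96 and 4.67 CPM under atezolizumab, 17.9, 13.0 and 13.8 CPM under avelumab and 6.29, 5.66 and 5.50 CPM under durvalumab. The avelumab libraries stood above the other 6, and the durvalumab libraries above those under atezolizumab. Avelumab minus atezolizumab gave a log2 change of 1.72 ± 0.115, a 3.29-fold difference, and durvalumab minus avelumab gave -1.36 ± 0.11, 2.57-fold lower under durvalumab. Of all genes tested in these pairs, 1.21% and 0.387% were called at an adjusted p under 0.05, and nothing is read from this for the members, since the choice rests on this contrast. Durvalumab minus atezolizumab, which the choice did not use, gave 0.35 ± 0.128 (edgeR adjusted p = 0.35).

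ALDH1A1 showed the same order of antibodies in 786-O resistant. Its levels were 128, 111 and 131 CPM under atezolizumab, 214, 178 and 203 CPM under avelumab and 131, 143 and 144 CPM under durvalumab. The 3 avelumab libraries lay above the rest, while those of the other antibodies overlapped. Avelumab minus atezolizumab gave a log2 change of 0.66 ± 0.071 and durvalumab minus avelumab one of -0.52 ± 0.07, given without a test because they belong to the contrast of the choice. The remaining members differed less in avelumab minus atezolizumab there, with log2 changes of 0.44 ± 0.383 for RARB, 0.38 ± 0.184 for CRABP2, 0.15 ± 0.048 for ALDH1A3, 0.13 ± 0.064 for RDH10, 0.00 ± 0.064 for RARG and -0.03 ± 0.057 for RARA. CYP26B1 did not pass the filter on low counts. ALDH1A3 had non-overlapping libraries, at 50.5, 51.1 and 52.4 CPM under avelumab against 45.2, 44.9 and 46.7 CPM under atezolizumab. How many of all genes separate in this way was not counted, and nothing is read from it. In that pair 2867 of the 18886 genes tested had an unadjusted p under 0.05. In durvalumab minus atezolizumab, edgeR called 0 of the 8 members that passed the filter (2 at an unadjusted p under 0.05, 0 with DESeq2). Over all genes tested in that pair, 0.0% were called, with 2251 genes at an unadjusted p under 0.05 and 4 called by DESeq2.

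In 786-O parental, libraries the choice did not use, DHRS3 and ALDH1A1 were again higher under avelumab than under atezolizumab. DHRS3 was at 1.99, 1.71 and 2.12 CPM under atezolizumab, 2.44, 3.34 and 3.36 CPM under avelumab and 2.51, 1.89 and 2.98 CPM under durvalumab. The avelumab libraries lay above those under atezolizumab, and the durvalumab libraries overlapped both. DHRS3 rose 1.57-fold in avelumab minus atezolizumab (log2 change 0.65 ± 0.159, edgeR adjusted p = 0.0191). That call rests on 57 to 81 counts per library under atezolizumab and 81 to 194 under avelumab. It was lost without atezolizumab replicate 1 (adjusted p = 0.0602) or replicate 2 (0.0803), without avelumab replicate 2 (0.139) or replicate 3 (0.0867), and in 1 fit of all 36 libraries (0.0635), over a range of log2 changes of 0.57 to 0.77.

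ALDH1A1 was at 99.9, 94.6 and 93.1 CPM under atezolizumab, 117, 117 and 125 CPM under avelumab and 121, 126 and 127 CPM under durvalumab in 786-O parental. Libraries under avelumab and durvalumab overlapped, and both sets lay above atezolizumab. ALDH1A1 rose 1.24-fold under avelumab (log2 change 0.31 ± 0.037, edgeR adjusted p = 2.01e-05) and 1.28-fold under durvalumab (0.36 ± 0.037, adjusted p = 5.37e-06), each against atezolizumab. In 1 fit of all 36 libraries the avelumab difference did not pass (adjusted p = 0.0545). In 786-O parental, 2 of the 7 members that passed the filter were thus called in avelumab minus atezolizumab, where 4.34% of all genes tested were called. In durvalumab minus atezolizumab 1 of 7 was called, against 1.82% of all genes, and DHRS3 gave 0.31 ± 0.167 (adjusted p = 0.409). RARG gave 0.15 ± 0.048 in avelumab minus atezolizumab (adjusted p = 0.072). In durvalumab minus avelumab edgeR called 0 of 7 members (2 at an unadjusted p under 0.05, 0 with DESeq2), against 0.0% of all genes, where 1899 genes had an unadjusted p under 0.05 and DESeq2 called 28. These antibody pairs share libraries, so the values are set side by side only.

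**Figure D3:**
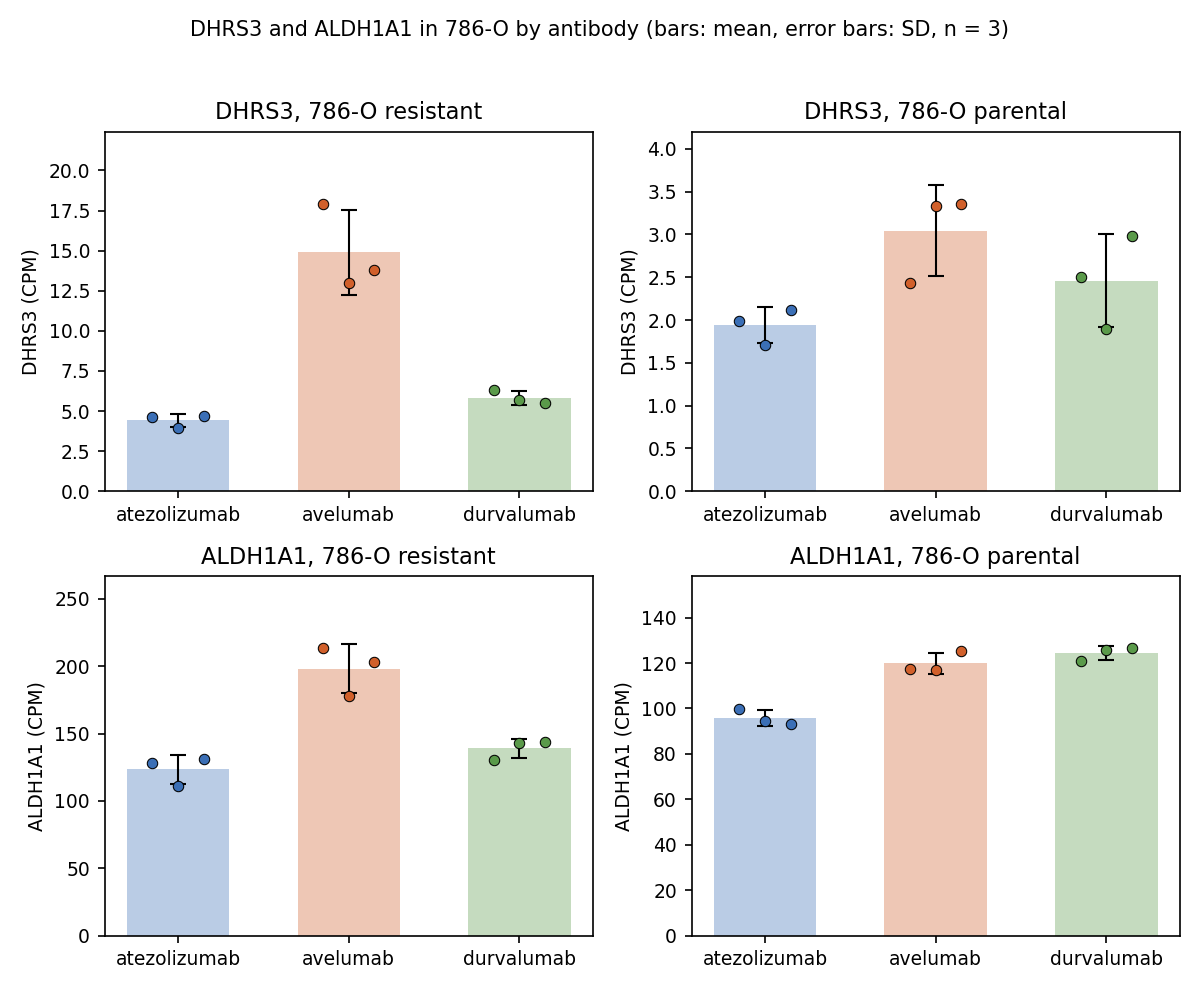
DHRS3 (top) and ALDH1A1 (bottom) in CPM from 0 in 786-O resistant (left) and 786-O parental (right), by antibody; points are libraries, bars are means and error bars are SD (n = 3), and each panel has its own axis. Under avelumab DHRS3 averages 14.9 CPM in resistant and 3.05 CPM in parental 786-O, against 4.43 and 1.94 under atezolizumab.

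In A498 parental the direction for ALDH1A1 was the opposite. Its levels were 1580, 1440 and 1766 CPM under atezolizumab, 1427, 1144 and 1165 CPM under avelumab and 1122, 1255 and 1144 CPM under durvalumab. The 3 atezolizumab libraries lay above the rest, the lowest by a narrow margin over avelumab replicate 1. The log2 change was -0.37 ± 0.113 for avelumab and -0.46 ± 0.113 for durvalumab, each minus atezolizumab (edgeR adjusted p = 0.176 and 0.118). Without avelumab replicate 1 both passed (-0.48, adjusted p = 0.0238, and -0.46, adjusted p = 0.019), as they did in 1 fit of all 36 libraries (adjusted p = 0.0161 and 0.00418) and with DESeq2 (0.0425 and 0.00793). CRABP2 gave -0.20 ± 0.102 and -0.27 ± 0.101 in the same pairs (adjusted p = 0.367 and 0.239), and passed without avelumab replicate 1 (-0.33, adjusted p = 0.00627, and -0.27, adjusted p = 0.0102) and with no filter on low counts (0.0264 and 0.000591). DHRS3 gave -0.08 ± 0.052 and -0.06 ± 0.052 (adjusted p = 0.473 and 0.62).

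Counted over the members, edgeR called 0 of 9 in each antibody pair of A498 parental. In avelumab minus atezolizumab 2 members had an unadjusted p under 0.05 and DESeq2 called 1, against 3.39% of all genes called. In durvalumab minus atezolizumab 3 members had an unadjusted p under 0.05 and DESeq2 called 1, against 2.8% of all genes. In durvalumab minus avelumab no member had an unadjusted p under 0.05 and DESeq2 called 0, against 0.0599% of all genes. In the libraries labelled A498 resistant, edgeR called 0 of the 8 members that passed the filter in each pair, and DESeq2 called 0. There avelumab minus atezolizumab had 0 members at an unadjusted p under 0.05 and 0.0% of all genes called (619 genes at an unadjusted p under 0.05, 0 with DESeq2). Durvalumab minus atezolizumab had 0 members at that p and 0.00571% of genes called, and durvalumab minus avelumab had 3 members and 0.0171% of genes. DHRS3 averaged 35.5 ± 2.74 CPM under atezolizumab, 36.1 ± 1.86 under avelumab and 34.1 ± 1.47 under durvalumab in these libraries (SD, n = 3).

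Whether the antibody differences depended on the line was tested between the parental lines, as an analysis added after the data were seen. For ALDH1A1, avelumab minus atezolizumab was higher in 786-O parental than in A498 parental by 0.67 ± 0.124 on the log2 scale (edgeR adjusted p = 0.0212), where 1.37% of all genes were called. Durvalumab minus atezolizumab differed by 0.81 ± 0.124 (adjusted p = 0.00969), where 0.797% of genes were called. ALDH1A1 was the 1 member called of 9 in each. The first call was lost without A498 parental atezolizumab replicate 1 (adjusted p = 0.0534) or avelumab replicate 2 (0.0638), and without 786-O parental atezolizumab replicate 1 (0.0518) or 3 (0.0532) or avelumab replicate 3 (0.0604). DHRS3 gave 0.73 ± 0.191 in avelumab minus atezolizumab (adjusted p = 0.0726). It passed with no filter on low counts (9.1e-07), with DESeq2 (0.000312), and without A498 parental avelumab replicate 1 (0.0143) or durvalumab replicate 2 (0.0329) or 786-O parental avelumab replicate 1 (0.0312) or durvalumab replicate 2 (0.0348). Line and batch cannot be told apart here.

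Between the parental lines, all 9 members were higher in A498 than in 786-O, averaged over the antibodies. The largest difference was that of CYP26B1, 462-fold (log2 change 8.85 ± 0.088), against a 786-O parental level of 31 counts in 9 libraries. RARB was 130-fold higher (7.02 ± 0.132), DHRS3 51.2-fold (5.68 ± 0.059), RDH10 14.8-fold (3.89 ± 0.027), ALDH1A1 11.5-fold (3.53 ± 0.055) and CRABP2 7.56-fold (2.92 ± 0.06). ALDH1A3 (1.30 ± 0.029), RARA (1.03 ± 0.026) and RARG (0.96 ± 0.027) differed by about 1 log2 unit. Adjusted p-values from edgeR ran from 7.9e-54 to 1.49e-16. CYP26B1 and RARB did not pass the filter on low counts when 786-O parental was fitted alone. Both thus entered this test through A498 parental, where they were higher. Of all genes tested, 44.3% were called higher and 42.9% lower, with a median log2 change of 0.01 against 3.53 over the 9 members. In bulk RNA, fewer cells of a type and less RNA per cell cannot be told apart.

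The libraries labelled A498 resistant were lower than A498 parental for all 9 members. CYP26B1 was 119-fold lower (log2 change -6.90 ± 0.079), RARB 32.4-fold (-5.02 ± 0.08), CRABP2 11.8-fold (-3.57 ± 0.067) and RDH10 7.16-fold lower (-2.84 ± 0.026). ALDH1A1 (-2.09 ± 0.054), DHRS3 (-1.95 ± 0.033), RARG (-0.90 ± 0.029), RARA (-0.41 ± 0.03) and ALDH1A3 (-0.11 ± 0.028) followed. Adjusted p-values from edgeR ran from 3.68e-54 to 0.000531, and of all genes tested 44.2% were called higher and 44.0% lower. The median over the members was -2.09, against 0.01 over all genes. HIF1A fell from 294 to 8.99 CPM between the same libraries, so the labelled resistance and the identity of the libraries cannot be told apart in this difference. It shares the A498 parental libraries with the line comparison above.

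In 786-O, resistant cells were higher than parental cells for most of the members tested. ALDH1A3 was 2.15-fold higher (log2 change 1.11 ± 0.027), RARB 2.1-fold (1.07 ± 0.323), RDH10 1.75-fold (0.81 ± 0.038), RARA 1.72-fold (0.78 ± 0.032) and ALDH1A1 1.24-fold (0.31 ± 0.036). CRABP2 was 1.65-fold lower (-0.72 ± 0.09) and RARG 1.05-fold lower (-0.07 ± 0.033). Thus 5 of the 7 members tested rose and 2 fell (edgeR adjusted p from 7.98e-27 to 0.0432), against 43.6% of all genes called higher and 40.2% lower. The RARB rise lies at the limit of depth, with 113 counts over the resistant libraries against 46 over the parental ones. RARB did not pass the filter on low counts when 786-O parental was fitted alone, but did when 786-O resistant was. It thus entered this test through the group where it was higher, and nothing is read from RARB as 1 of the 5. Split by antibody, its rise was called for durvalumab (edgeR adjusted p = 0.0227) but neither for avelumab (0.139) nor for atezolizumab (0.145). ALDH1A3 and its antisense neighbour rose together. The RARG call was lost without 786-O resistant atezolizumab replicate 2 or 3, avelumab replicate 2 or durvalumab replicate 2, without 786-O parental atezolizumab replicate 1, avelumab replicate 2 or durvalumab replicate 1 or 3 (adjusted p from 0.0539 to 0.106), with DESeq2 (0.0527) and with a filter of 1 CPM in every library (log2 change -0.002, adjusted p = 0.945). CYP26B1 did not pass the filter on low counts.

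DHRS3 in 786-O was tested over atezolizumab and durvalumab only, an analysis added after the data were seen, because the choice of members used its avelumab level. Resistant cells were 2.16-fold higher, with a log2 change of 1.11 ± 0.113 (edgeR adjusted p = 1.53e-09), where 79.4% of all genes were called in either direction. The change was 1.08 ± 0.168 under atezolizumab and 1.14 ± 0.152 under durvalumab. Under avelumab it was 2.16 ± 0.13, given with no test. The ALDH1A1 change was 0.26 ± 0.062 under atezolizumab, 0.62 ± 0.061 under avelumab and 0.05 ± 0.062 under durvalumab, and the differences among these 3 were not tested. The averaged ALDH1A1 change was 0.16 ± 0.044 over atezolizumab and durvalumab only (adjusted p = 0.0026). RDH10 changed by 0.79 ± 0.066, 0.87 ± 0.064 and 0.76 ± 0.065 under atezolizumab, avelumab and durvalumab, and RARA by 0.85 ± 0.056, 0.74 ± 0.054 and 0.75 ± 0.055.

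Set against 786-O resistant, the libraries labelled A498 resistant were higher in DHRS3 and ALDH1A1 and close in the other abundant members. ALDH1A1 was 2.15-fold higher (log2 change 1.10 ± 0.038), CYP26B1 2.93-fold (1.55 ± 0.299), RARB 1.88-fold (0.91 ± 0.196) and RDH10 1.16-fold (0.22 ± 0.035). RARG (0.11 ± 0.034) and ALDH1A3 (0.06 ± 0.027) were slightly higher and RARA 1.14-fold lower (-0.19 ± 0.037), while CRABP2 gave 0.05 ± 0.103 (edgeR adjusted p = 0.655). Thus 6 of 8 members tested were higher and 1 lower, against 33.8% and 35.2% of all genes. Of the 6, CYP26B1 and RARB lie at the limit of depth. Summed counts, with those for 786-O resistant second, were 77 against 43 for CYP26B1 and 129 against 113 for RARB. CYP26B1 did not pass the filter on low counts when either state was fitted alone. Its libraries lay at 0.0213 to 0.1997 CPM in 786-O resistant and 0.2001 to 0.5788 CPM in those labelled A498 resistant. It thus entered this test through the group where it was higher, and nothing is read from CYP26B1 as 1 of the 6. The ALDH1A3 call (adjusted p = 0.0372) was lost without the libraries labelled A498 resistant atezolizumab replicate 3, avelumab replicate 1 or durvalumab replicate 1 or 2, and without 786-O resistant atezolizumab replicate 1 or 2, avelumab replicate 1 or 2 or durvalumab replicate 3 (adjusted p from 0.0532 to 0.141), and with no filter on low counts (0.2). DHRS3, over atezolizumab and durvalumab only, was 6.68-fold higher (2.74 ± 0.07, adjusted p = 7.1e-22), where 63.6% of all genes were called.

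**Figure D4:**
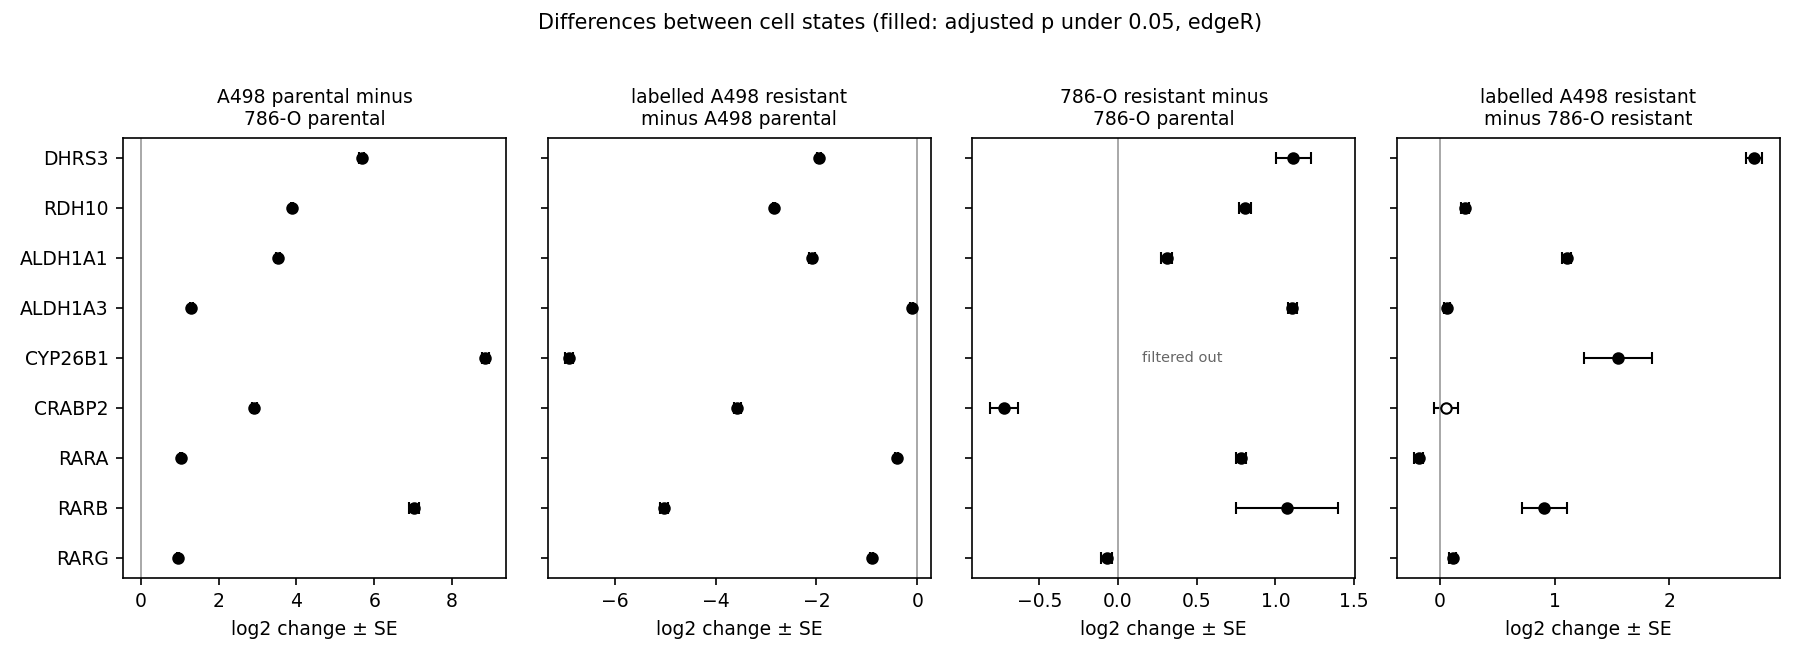
Log2 changes ± SE of the 9 genes (vertical) in 4 comparisons of cell states, each panel with its own horizontal axis; filled points have an edgeR adjusted p under 0.05, and DHRS3 is averaged over atezolizumab and durvalumab in both panels that use 786-O resistant. The points run from 0.96 to 8.85 between the parental lines and lie between -0.72 and 1.11 for 786-O resistant minus parental.

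The resistant minus parental change, as labelled, was higher in 786-O than in A498 for 8 of 8 members tested. Of the 20752 genes tested, 8265 were called higher and 8418 lower, which is 80.4% in either direction. DHRS3 over atezolizumab and durvalumab gave 3.08 ± 0.133 (edgeR adjusted p = 5.55e-19), where 76.5% of genes were called. This comparison is built from the same libraries as those above, the libraries labelled A498 resistant included.

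Other genes of the pathway were taken from 3 lists, with 44 genes of retinoid uptake, storage, metabolism and receptors, 12 receptor coregulators and 29 known retinoic acid targets. In the first list, STRA6, the cell-surface receptor for the retinol carrier, had means of 9.88 CPM in A498 parental, 0.555 CPM in libraries labelled A498 resistant, and, for the line 786-O, 0.475 CPM in resistant against 0.191 CPM in parental cells. STRA6 differed by 5.67 ± 0.093 on the log2 scale between the parental lines, and BCO2, a carotenoid-cleaving enzyme, by 4.23 ± 0.107, whereas PNPLA4, a retinyl ester hydrolase, was lower in A498 parental (-2.22 ± 0.055). Between the parental lines 16 of the 26 genes tested were higher in A498 and 10 lower, against 44.3% and 42.9% of all genes, with a median of 0.49. For 786-O resistant minus parental 11 of 24 rose and 7 fell (median 0.06), near the 43.6% and 40.2% of all genes. BCO1, which cleaves beta-carotene, fell by 2.50 on the log2 scale, and DHRS7 rose by 0.80 ± 0.035. STRA6 (7.0%), BCO1 (13.9%) and DHRS7 (27.5%) share exonic length with a gene on the other strand, and BCO2 (7.9%) with one on the same strand, so their values are uncertain. In the libraries labelled A498 resistant minus parental 11 of 24 rose and 12 fell, against 44.2% and 44.0% of all genes.

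The 12 receptor coregulators were each at 1 CPM or more on average in each state. In 786-O resistant minus parental 8 of the 12 rose and 4 fell, against 43.6% and 40.2% of all genes. Among them were the corepressor NRIP1 (-1.08 ± 0.035), TBL1XR1 (-0.96 ± 0.051) and the coactivators MED1 (0.70 ± 0.023) and NCOA2 (0.51 ± 0.034). Between the parental lines 9 of 12 were higher in A498 and 1 lower, against 44.3% and 42.9% of all genes. PRAME, which represses retinoic acid receptor signalling, was higher in A498 parental, with means of 143 against 32.7 CPM (edgeR adjusted p = 4.74e-43). NRIP1 was higher by 1.16 ± 0.03 on the log2 scale and NCOA3 by 0.76 ± 0.032, while HDAC3 was lower (-0.575 ± 0.023). HDAC3 shares 9.2% of its exonic length with a gene on the other strand and is uncertain. In the libraries labelled A498 resistant minus parental, PRAME fell by 2.01 and NRIP1 by 1.46 on the log2 scale, while NCOA2 rose by 0.70 and MED1 by 0.54. There 7 of 12 coregulators were higher and 4 lower, against 44.2% and 44.0% of all genes.

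Of the retinoic acid targets, 23 of 29 were tested between the parental lines, where 16 were higher in A498 and 6 lower, against 44.3% and 42.9% of all genes. Their median was 0.53, against 0.01 over all genes. ELF3, an epithelial transcription factor, was higher in A498 parental by 3.20 ± 0.048, and the phospholipase PLAAT4 by 2.49 ± 0.077. ELF3 shares 9.2% of its exonic length with ELF3-AS1 on the other strand. It shares 9.2% with AL691482.3 on the same strand, so the ELF3 values here and below are uncertain. RARRES2, the gene of the chemoattractant chemerin, was lower by 5.96 on the log2 scale (-5.96 ± 0.043), with means of 4.46 CPM in A498 parental and 274 CPM in 786-O parental. In the libraries labelled A498 resistant minus parental 6 of 23 rose and 16 fell (median -0.51), against 44.2% and 44.0% of all genes, and TGM2, a transglutaminase, was at -2.23 ± 0.05. RARRES2 rose there by 6.01 ± 0.034. In 786-O resistant minus parental 11 of 22 rose and 9 fell (median 0.07), near the 43.6% and 40.2% of all genes. ELF3 rose by 1.84 ± 0.04 while THBD, the gene of thrombomodulin, fell by 1.57 on the log2 scale. TFAP2A, a transcription factor that shares 11.4% of its exonic length with an antisense gene and is uncertain, rose by 1.94 ± 0.054.

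Listed genes were also compared between antibodies. In 786-O parental, the genes that rose in avelumab minus atezolizumab included ELF3 (0.28 ± 0.071, edgeR adjusted p = 0.0228) and HOXA5, a homeobox gene (0.33 ± 0.075, adjusted p = 0.0129), and TGM2 was among those that fell (-0.16 ± 0.04, adjusted p = 0.0294). In all 3 of 22 targets rose and 2 fell in that pair, and 3 of 19 genes of the first list rose and 1 fell, where 4.34% of all genes were called in either direction. Durvalumab minus atezolizumab in 786-O parental also called ELF3 (0.28 ± 0.072, edgeR adjusted p = 0.0439) and TGM2 (-0.29 ± 0.04, adjusted p = 0.00033). There 1 of 22 targets rose and 2 fell, against 1.82% of all genes called in either direction. In 786-O resistant, the contrast of the choice, ELF3 gave 0.53 ± 0.063, PLAAT4 0.48 ± 0.11, HOXA5 0.34 ± 0.083 and TGM2 -0.25 ± 0.048, as a description. In A498 parental, TGM2 went the other way, with 0.22 ± 0.039 for avelumab (adjusted p = 0.00137) and 0.15 ± 0.039 for durvalumab (adjusted p = 0.0252), each minus atezolizumab. PLAAT4 fell there in durvalumab minus atezolizumab (-0.42 ± 0.092, edgeR adjusted p = 0.0321). Of the 23 targets tested in A498 parental, 1 rose and 0 fell under avelumab, and 1 rose and 1 fell under durvalumab. Of all genes, 3.39% and 2.8% were called in these pairs. In avelumab minus atezolizumab, 2 of the 12 coregulators rose in 786-O parental (PRAME and HDAC3) and 1 in A498 parental (NCOA3), and 0 fell. In 786-O resistant, as a description, NRIP1 gave 0.36 ± 0.063 and TBL1XR1 0.29 ± 0.068 in that pair. No gene of the 3 lists was called between antibodies in libraries labelled A498 resistant, nor in durvalumab minus atezolizumab in 786-O resistant.

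The genes whose levels were most like those of DHRS3 over the 12 group means, by Pearson correlation of log2(CPM + 1) among 11300 protein-coding genes, were SLC5A3 (r = 0.9925), FBXO32 (0.9921), TMEM106B (0.99), TMEM184C (0.9899) and BAZ2B (0.9898). Their ranges over states were narrower than that of DHRS3. SLC5A3, an inositol transporter, ran from a mean of 25.1 CPM in 786-O parental to 55.8 CPM in A498 parental, and FBXO32, a ubiquitin ligase subunit, from 9.19 to 64.9 CPM. Of the other members, ALDH1A1 had the highest correlation with DHRS3 over the 12 groups (r = 0.9685), followed by RDH10 (0.9088) and RARG (0.8708), and CRABP2 the lowest (0.7245). The 12 points fall into 4 states with a batch each, so these values describe the order of states and carry no p. They include the avelumab level of DHRS3 in 786-O resistant that led to the choice, and nothing is read from them for the members.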

How the data were processed

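The deposited table holds unnormalized read counts by gene for the 36 libraries, and no column was left out. The submitters' processing notes name HISAT2 2.1.0, featureCounts 1.6.3, Trimmomatic 0.36.6 and bcl2fastq 2.19.0, and the build GRCh38. Per the labels' protocols, polyadenylated RNA was made into stranded libraries. The strand setting and annotation release were not given in the sources used here.

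Tests used edgeR 4.0.16 (R 4.3.3; filterByExpr with a count minimum of 10 and a total minimum of 15, TMM, robust quasi-likelihood fit of group means). Benjamini-Hochberg adjustment ran over all genes tested in a contrast, with a threshold of 0.05, and standard errors were derived from the F statistic. Antibodies were compared in the 9 libraries of a state, states in 18 libraries, and the difference between lines in 36. CPM used raw library totals, and RPKM used exonic lengths from GENCODE 29. Reads were counted without molecular identifiers. The script was tested on simulated data.

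All 9 members are named. From each wider list, up to 4 genes per comparison could be named, those with the largest log2 change past the threshold and at least 1 CPM in the higher group. Likeness to DHRS3 named the 5 genes of highest correlation with at least 5 CPM in a group. Alternatives were DESeq2 1.42.0, its size factors, no filter, a strict filter, a replicate block, 1 fit of all libraries and leaving out each library. Replicate numbers were not used to pair the libraries in the main tests. Correlations of same-numbered deviations had medians between -0.034 and 0.024, which cannot show whether those libraries were handled together. The members and lists were chosen with earlier results of these data known. Promoter sequences are from RefSeq on GRCh38.p14.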

Additional observations from a re-analysis of the deposited data

Results flagged for a closer look

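The resistant minus parental change, as labelled, differed between the lines for all 9 genes, by a test of the difference over the 36 libraries. Most genes did so, with 80.4% of all genes called, or 76.5% in the contrast over atezolizumab and durvalumab used for DHRS3. The change in 786-O minus that in A498, on the log2 scale, was 3.63 for RDH10, 2.39 for ALDH1A1, 1.20 for ALDH1A3, 7.26 for CYP26B1, 2.83 for CRABP2, 1.18 for RARA, 6.08 for RARB and 0.82 for RARG. For DHRS3 it was 3.08 over atezolizumab and durvalumab. These values rest on the libraries labelled A498 resistant, in which HIF1A lay between 8.40 and 9.73 CPM against 285 to 305 CPM in A498 parental, and their part in the differences was not tested.

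ALDH1A1 differed between antibodies in a way that differed between the parental lines. Avelumab minus atezolizumab was higher in 786-O parental than in A498 parental by 0.67, and durvalumab minus atezolizumab by 0.81 on the log2 scale. Line and batch cannot be told apart in this difference.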

How the results depend on the processing

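Most results kept their direction and their side of the threshold. Of the values for single genes recomputed under an alternative, 2045 were counted as the same, 36 lost the call, 18 gained one and 1 changed sign. The 2045 include DHRS3 and ALDH1A1 in the contrasts of the choice, with 15 alternatives each. Those values have no threshold and were counted as the same if they moved by less than the replicate SD. Nothing is read from them. The change of sign was RARG in 786-O resistant minus parental under atezolizumab, -0.013 without 786-O resistant atezolizumab replicate 1 against 0.05 with all libraries, where leaving out 1 library gave -0.013 to 0.087. For the number of members called, A498 parental gave 1 in avelumab minus atezolizumab and 1 in durvalumab minus atezolizumab, against 0, in 1 fit of all 36 libraries, with no filter on low counts and with the DESeq2 Wald test. Leaving out 1 library gave 0 to 2 in each. Avelumab minus atezolizumab in 786-O parental gave 0 members in 1 fit of all 36 libraries, against 2, and 1 to 2 when 1 library was left out. The causes were not tested. With the replicate block, no member count changed. DHRS3 in avelumab minus atezolizumab in 786-O parental was then 0.66 (edgeR adjusted p = 0.0277). Same-numbered deviations correlated between -0.194 and 0.186 over the fits, and whether the numbers pair the libraries is not known. Depth limits CYP26B1 and RARB outside A498 parental, where 9 libraries held 31 to 129 counts in all. Limits of the design are that each state has 1 batch label, and that the antibodies are compared with each other and not with untreated cells.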
